A study of Danio rerio with 7 samples.

Results

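In wild-type zebrafish larvae held at low oxygen, 77 of the 25049 genes in the count table stood at least 2-fold above normoxia with no overlap between the libraries, and they are described here one role at a time. A gene was selected on 3 values of the same contrast. Its mean over the hypoxia libraries had to reach 1 CPM (counts per 1000000, the count divided by the total of its library and multiplied by 1000000), the hypoxia mean had to be at least 2 times the normoxia mean, and the lowest hypoxia library had to lie above the highest normoxia library. Of the 19675 genes at 1 CPM or more in hypoxia, 80 met these conditions (0.407%). EGLN3 (ENSDARG00000032553) and 20 hormone genes that the study displays were left out by definition, and 3 of them, EGLN3, epoa and gnrh2, had met the values. Because the groups chose the genes, the fold changes below are descriptions, and no test is drawn from them.

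Both groups were whole larvae of wild-type genotype, sampled as pools of 30. Normoxia was 20.9% O2 and hypoxia 6% O2, each from 81 to 96 hpf (hours post-fertilization), with 4 normoxia and 3 hypoxia replicates. Per the study's methods, hypoxia was given in a workstation with CO2 held constant, and normoxia is described only as atmospheric oxygen. The lighting of either group is not stated there. Effects of oxygen and of the chamber therefore cannot be told apart. Poly(A) RNA was sequenced, and the study's methods describe the replicates as biological, so that the spread given below is between pools. Larvae were not dissected. A larger number of cells of one type and more RNA per cell therefore cannot be told apart.

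Cells answer a shortage of oxygen largely through the hypoxia-inducible factors (HIFs), transcription factors whose alpha subunits are hydroxylated and destroyed while oxygen is plentiful. Prolyl hydroxylases of the EGLN family mark HIF alpha for the VHL ubiquitin ligase, and the asparaginyl hydroxylase HIF1AN blocks its contact with coactivators. Known HIF targets in vertebrates take part in glucose uptake and glycolysis, lactate export, oxygen and heme handling, collagen hydroxylation and growth arrest, and they include the hydroxylases themselves.

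Library totals ran from 67083058 to 78235938 counts, at which 3 counts correspond to 0.0383 to 0.0447 CPM. Replicates of a group differed from each other by more than counting noise in every pair. At least 1 marker each of muscle, lens, neurons, liver, exocrine pancreas, epidermis and red cells was detected. The middle gene of all those at 1 CPM or more in hypoxia had a ratio of 0.943. Over all tested genes the middle log2 fold change was -0.10 when scaled by column totals and -0.00438 with TMM scaling, and the CPM values printed here are scaled by column totals. CPM is not divided by transcript length, so that differences in CPM between genes are differences in their share of the reads and not in the number of transcripts. Log2 fold changes and their standard errors (SE) come from edgeR's quasi-likelihood fit of all 23716 tested genes with TMM scaling.

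The genes spanned a wide range of levels, and few of them rose steeply. Mean CPM in hypoxia ran from 1.02 to 5684 with a median of 11.3, and 22 genes lay under 5 CPM, 15 between 5 and 10, 21 between 10 and 50, 11 between 50 and 100 and 8 at 100 or more. The ratio of the means ran from 2.01 to 20.7 with a median of 2.41. It lay under 2.5 in 44 genes, at 4 or more in 12 and at 5 or more in 6. The log2 fold changes had a median of 1.37 and reached 4.47, with SE of 0.04 to 0.39. In 36 genes even the lowest hypoxia library was at least 2 times the highest normoxia library. All 77 were called higher by edgeR (adjusted p under 0.05 and log2 fold change over 0.6), against 3.07% of the tested genes called higher and 7.45% called lower. Nothing is read from that count, since the call uses the contrast that chose the genes. Every hypoxia library lay above every normoxia library in 21.2% of the genes at 1 CPM or more in hypoxia.

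**Figure D1:**
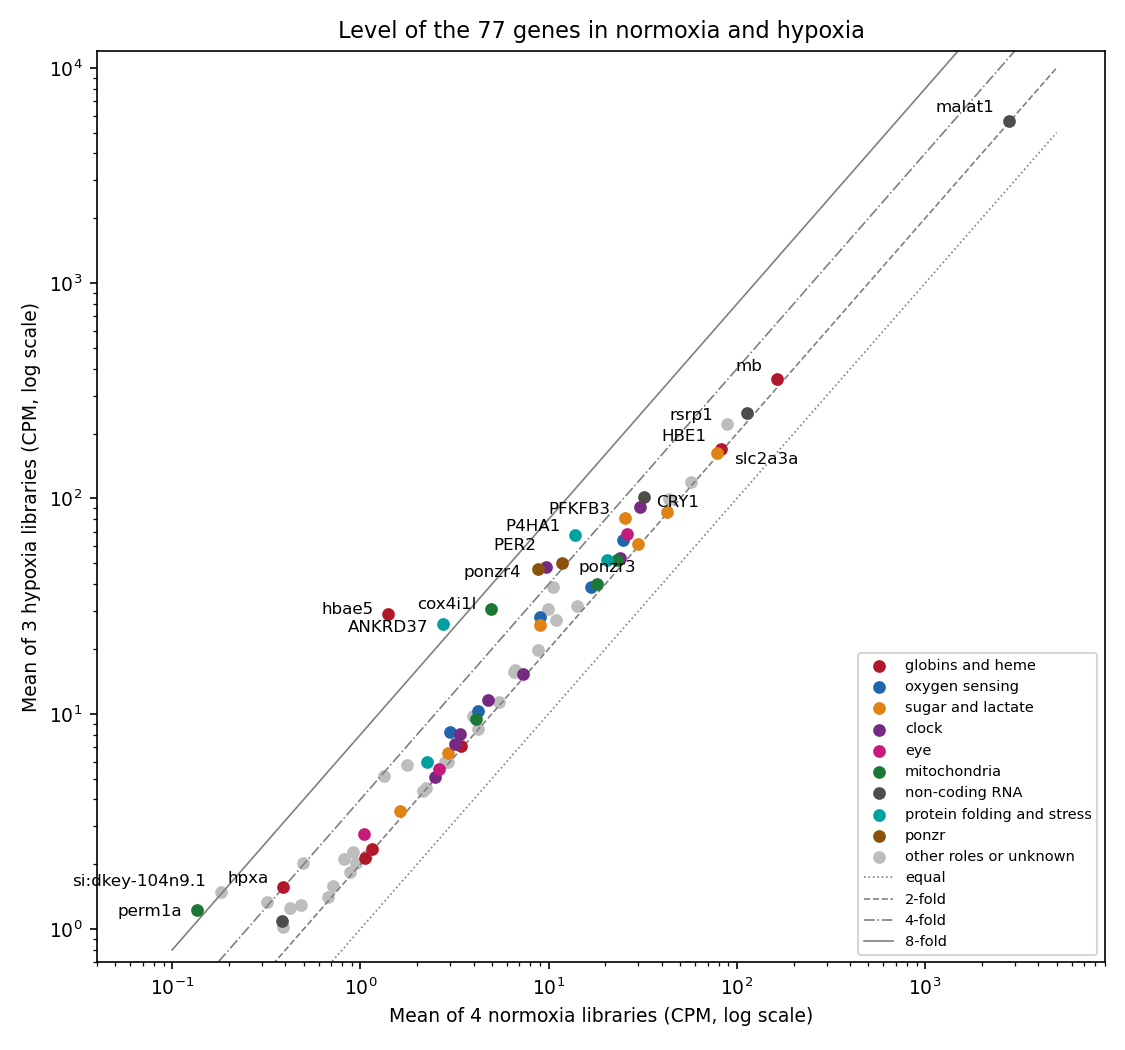
Mean level in hypoxia (vertical axis, CPM, log scale) against mean level in normoxia (horizontal axis, CPM, log scale) for the 77 genes, with lines for equal levels and for 2-, 4- and 8-fold higher levels and colours for roles. The points run close to the 2-fold line from under 1 CPM in normoxia to malat1 at 2777 CPM, and hbae5, ANKRD37, perm1a and si:dkey-104n9.1 lie above the 8-fold line.

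A single RNA carried most of the counts. malat1, a long non-coding RNA of the nucleus that is among the most abundant of its kind in vertebrates, had 2748, 2604, 2174 and 3582 CPM in normoxia replicates 1 to 4 and 5534, 5469 and 6048 CPM in hypoxia replicates 1 to 3. The highest normoxia pool, replicate 4, stood well apart from the other normoxia pools and still below all 3 hypoxia pools. The ratio of its means was 2.05 (log2 fold change 1.13, SE 0.13), and it made up 66.2% of the CPM summed over the 77 genes in hypoxia. Without it the sum was 1163 CPM in normoxia and 2899 CPM in hypoxia. RefSeq annotates further members as long non-coding. si:ch73-52f24.4 had 98.5, 123.6, 106.9 and 122.7 CPM in normoxia and 243, 251 and 254 CPM in hypoxia. si:dkey-85k7.7 had 27.8, 33.2, 33.8 and 34.2 CPM against 101, 97.9 and 105 CPM, a ratio of 3.15. Neither of these has a function given in the tables used here. MIR21, a microRNA gene of which a poly(A) library counts the longer transcript over the locus and not the mature RNA, was near the lower limit of level at 0.303 to 0.484 CPM in normoxia and 1.03, 1.09 and 1.16 CPM in hypoxia. These 4 RNAs were highest in hypoxia replicate 3. RefSeq also lists si:rp71-46j2.8 as long non-coding, and it was highest there too, at 0.927, 0.865 and 1.27 CPM in hypoxia replicates 1 to 3.

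The enzymes that shut HIF down were themselves higher in hypoxia. EGLN2, a HIF prolyl hydroxylase, had 10.02, 7.74, 8.91 and 9.36 CPM in normoxia and 29.6, 28.4 and 26.5 CPM in hypoxia, a ratio of 3.13 (log2 fold change 1.74, SE 0.08). Of the 2 genes of the table named EGLN1, the prolyl hydroxylase regarded as the main oxygen sensor in mammals, ENSDARG00000004632 had 15.7, 16.7, 17.6 and 16.9 CPM against 35.9, 40.2 and 39.8 CPM. The other, ENSDARG00000038996, had 3.29, 2.76, 3.13 and 2.77 CPM against 8.20, 7.98 and 8.62 CPM. Their ratios were 2.31 and 2.77. HIF1AN had 26.6, 25.6, 25.1 and 22.6 CPM against 64.7, 63.0 and 64.4 CPM, and vhl 4.70, 3.83, 4.10 and 4.17 CPM against 10.8, 10.5 and 9.47 CPM. In all 5 of these genes the spread over the hypoxia pools was 6.90% or less of the mean (coefficient of variation, CV). The median CV of other genes was 6.37% at 1 CPM or more in hypoxia and 5.08% at 10 CPM or more.

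The HIF subunits on which these enzymes act were not among the genes. HIF1A had 203 ± 4.37 CPM (SD, n = 4) in normoxia and 194 ± 4.53 CPM (n = 3) in hypoxia (log2 fold change 0.02, SE 0.04), and EPAS1, the human name for HIF2 alpha, had log2 fold changes of -0.53 (SE 0.07) in ENSDARG00000008697 and -0.28 (SE 0.05) in ENSDARG00000057671. The zebrafish genes hif1aa, hif1al and hif1al2, named for HIF1 alpha or alike, had log2 fold changes of 0.48 (SE 0.07), 0.15 (SE 0.04) and 0.51 (SE 0.10). None of these 6 passed both thresholds. From a list of HIF pathway and feedback genes, 17 were tested besides EGLN3, and 7 were called higher and 0 lower. Their median log2 fold change was 0.48, where that of all tested genes was -0.00438. For this list and those below, the shares over all tested genes were 3.07% higher and 7.45% lower. Of those 7, 6 are among the 77, and VEGFA (ENSDARG00000034700), which encodes the main growth factor for vessels, is outside them at 15.4 CPM in normoxia and 27.7 CPM in hypoxia.

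ANKRD37 and the collagen hydroxylase gene P4HA1 had steep and even rises. ERO1A and DDIT4, of protein folding and growth arrest, rose less, with ratios of 2.64 and 2.54. ANKRD37, an ankyrin-repeat protein known as a HIF target in human cells, had 3.03, 2.61, 2.66 and 2.71 CPM in normoxia and 26.1, 26.4 and 26.2 CPM in hypoxia. Its ratio of 9.54 (log2 fold change 3.35, SE 0.06) was second to hbae5. The CV of its hypoxia pools was 0.491%, below the 2.36% that counting alone gives. P4HA1, a catalytic subunit of the prolyl hydroxylase that matures collagen, had 17.5, 12.9, 13.4 and 11.5 CPM against 68.7, 67.6 and 66.4 CPM, a ratio of 4.89. Normoxia replicate 1 was the highest of its control pools and all hypoxia pools lay close together. Its relatives were different, with P4HA2 at 19.0 and 30.8 CPM (log2 fold change 0.79, SE 0.07) and p4ha1a at 25.3 and 18.8 CPM (log2 fold change -0.33, SE 0.09, not past the fold threshold). ERO1A, an oxidase of the endoplasmic reticulum that helps to form disulfide bonds, had 2.58, 2.0, 2.33 and 2.16 CPM against 6.87, 5.72 and 5.36 CPM. DDIT4, which restrains the growth kinase mTORC1, had 19.4, 20.1, 20.7 and 21.7 CPM against 49.3, 55.4 and 51.04 CPM. For both genes the lowest hypoxia pool was more than 2 times the highest normoxia pool.

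P4HA1 was the only one of the 77 on a list of enzymes that use 2-oxoglutarate and oxygen (the EGLN genes and HIF1AN were counted with the HIF pathway). Of its 28 tested genes, 8 were called higher and 0 lower, with a median log2 fold change of 0.33. The other 7, among them kdm4c and KDM5B, which demethylate histones, had log2 fold changes of 0.61 to 0.83. On a list of mitophagy, growth arrest and cell stress genes, 5 of 28 were higher and 0 lower, with a median of 0.01, and DDIT4 alone was among the 77.

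**Figure D2:**
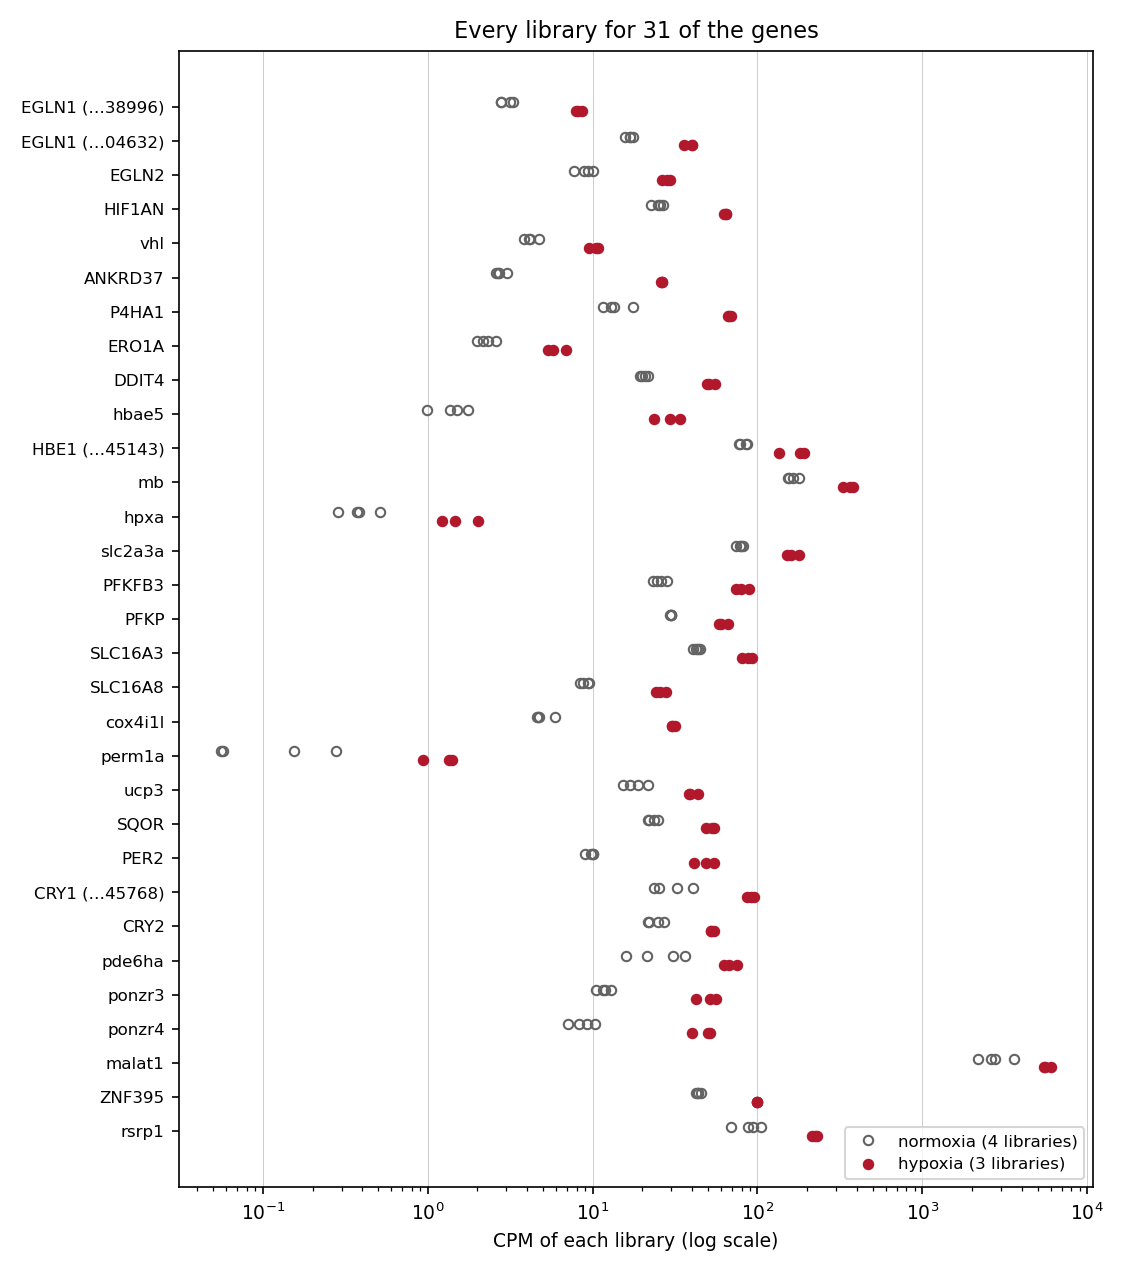
CPM of every library (horizontal axis, log scale) for 31 of the genes, with open circles for the 4 normoxia libraries and filled circles for the 3 hypoxia libraries. No gene has overlapping groups, as the selection required, and the filled circles of ANKRD37, P4HA1, HIF1AN and ZNF395 nearly coincide while those of hbae5, hpxa and HBE1 spread.

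The largest ratio belonged to a globin. hbae5 (ENSDARG00000045142), which encodes an embryonic alpha-type chain of hemoglobin, had 1.76, 1.37, 0.984 and 1.496 CPM in normoxia and 29.4, 34.0 and 23.7 CPM in hypoxia, 20.7 times as much (log2 fold change 4.47, SE 0.16). It was far from absent in normoxia, with 71 to 124 counts a library. The other 3 globin genes among the 77 were higher by a factor close to 2. HBE1 (ENSDARG00000045143), whose human symbol stands for an embryonic beta-type chain, had 78.3, 86.9, 85.6 and 77.1 CPM against 191, 182 and 135 CPM. hbae1.1 had 2.72 to 4.29 CPM in normoxia and 8.49, 6.41 and 6.32 CPM in hypoxia, and hbae4 had 1.61, 1.01, 1.01 and 0.971 CPM against 2.83, 2.27 and 1.95 CPM. hbae4 had the narrowest gap of all 77 genes, its lowest hypoxia pool standing 1.21 times above its highest normoxia pool.

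These 4 genes held a minor part of the globin counts. CPM summed over the globin genes at 0.1 CPM or more was 811 to 1054 in normoxia and 1519, 1470 and 1084 in hypoxia replicates 1 to 3, and the 4 genes made up 9.46% of the normoxia and 15.3% of the hypoxia mean. Among globins outside the set, hbae3 was at 397 ± 47.0 CPM in normoxia and 550 ± 110.1 CPM in hypoxia (log2 fold change 0.57, SE 0.12, short of the fold threshold). The HBE1 IDs ENSDARG00000113599, ENSDARG00000115405 and ENSDARG00000087390 had means of 270, 66.7 and 84.1 CPM in normoxia and 369, 89.3 and 103 CPM in hypoxia. Their log2 fold changes of 0.55 (SE 0.11), 0.51 (SE 0.11) and 0.39 (SE 0.14) were also short of the fold threshold. Called higher were hbae1.2 and hbae1.3, with log2 fold changes of 0.70 (SE 0.16) and 0.85 (SE 0.11), and hbbe3, at 1.85 (SE 0.67). hbbe3 had 0.996, 0.132, 0.180 and 0.0256 CPM in normoxia and 1.52, 1.01 and 0.772 CPM in hypoxia and failed the selection only because normoxia replicate 1 overlapped. alas2, the heme synthesis enzyme of red cells, had 23.6 ± 1.35 CPM and 28.3 ± 5.73 CPM, and the summed level of alas2 and hbae1.1, the 2 of 3 listed red cell markers that were found, was 25.4 to 28.5 CPM in normoxia and 28.9 to 42.6 CPM in hypoxia, of which hbae1.1 is one of the 77 itself. Other genes named for red cells or their precursors had different directions. SLC4A1 is the human symbol for the anion exchanger of the red cell membrane. It had log2 fold changes of 1.02 (SE 0.09) in ENSDARG00000012881 and -1.34 (SE 0.18) in ENSDARG00000024560, both past the thresholds. The shared symbol does not say which of these IDs is the red cell gene. The erythroid factor gata1a had -0.40 (SE 0.12) and the erythropoietin receptor EPOR -0.18 (SE 0.15), neither past them. The part of these markers in the globin values was not tested. Globin genes resemble each other in sequence, and the sources used here do not say how reads matching several genes were counted, which leaves the division of counts among HBE1, hbae1.1 and their neighbours uncertain.

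Other genes of oxygen and heme handling were also among the 77. mb, which encodes the oxygen-binding myoglobin, had 156, 178, 165 and 152 CPM in normoxia and 329, 379 and 364 CPM in hypoxia. Its CV over the hypoxia pools was 7.10%, above the median of 5.08% in other genes at 10 CPM or more in hypoxia. The summed CPM of 3 skeletal muscle markers (actc1b, myhz2 and ckma) was 26118 to 27455 in normoxia and 30390.1 to 31269 in hypoxia. Of these, actc1b and ckma had log2 fold changes of 0.30 (SE 0.04) and 0.38 (SE 0.04) and myhz2 of 0.06 (SE 0.07), and their part in the values of mb was not tested. hpxa, a hemopexin that binds free heme, had 0.285, 0.382, 0.374 and 0.511 CPM against 2.03, 1.46 and 1.22 CPM, while its relative hpxb had 5.33 ± 0.345 CPM and 3.51 ± 1.04 CPM (log2 fold change -0.51, SE 0.15, short of the fold threshold). kel, whose human relative carries the Kell blood group antigen on red cells, rose by a factor of 2.02. On a list of oxygen, heme and iron genes, 2 of 15 tested were higher (mb and hbae5) and 1 lower (tfa, a transferrin), with a median log2 fold change of -0.14. Over all tested genes 3.07% were higher and 7.45% lower.

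Sugar uptake, its regulation and lactate export were represented by 7 genes, among them a glucose transporter, a pair of phosphofructokinase-type enzymes and a pair of lactate transporters. slc2a3a, a glucose transporter of the GLUT3 type, had 74.2, 78.6, 82.0 and 79.2 CPM in normoxia and 150.4, 159 and 178 CPM in hypoxia. PFKFB3, which makes the activator fructose 2,6-bisphosphate and so speeds glycolysis, had 23.4, 28.1, 24.4 and 25.99 CPM against 89.0, 74.3 and 79.3 CPM, a ratio of 3.18. PFKP (ENSDARG00000012801), a phosphofructokinase, had 29.7, 29.7, 29.8 and 29.9 CPM against 58.4, 60.0 and 66.3 CPM. Its normoxia pools were the most alike of any of the 77 genes, with a CV of 0.317%. That is less than counting alone gives at 2085 to 2339 counts a library. Among exporters of lactate, SLC16A3 (ENSDARG00000045051, MCT4 in human) had 40.5, 42.3, 43.4 and 44.5 CPM against 80.8, 87.1 and 92.0 CPM. SLC16A8 (MCT3 in human, known from the retinal pigment epithelium) had 9.42, 8.36, 8.76 and 9.55 CPM against 24.2, 25.4 and 27.7 CPM. PPP1R3D, which guides a phosphatase to glycogen, and PMM1, a phosphomannomutase, were at 6.60 and 3.53 CPM in hypoxia, with ratios of 2.27 and 2.17.

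Several relatives lay just below the 2-fold limit. SLC2A1 (ENSDARG00000001437) had a ratio of 1.89, SLC16A3 (ENSDARG00000028583) of 1.87 and SLC16A1 (ENSDARG00000016963) of 1.74, and all 3 were called higher. PFKL (ENSDARG00000099755) and PFKP (ENSDARG00000028000) were called higher too, with log2 fold changes of 0.74 (SE 0.06) and 0.65 (SE 0.05). The PFKM genes, at 0.23 (SE 0.05) and 0.06 (SE 0.05), and PFKL (ENSDARG00000060504), at 0.07 (SE 0.05), were not. Nor were the relatives of PFKFB3, at -0.17 to 0.57. The transporters named next did not pass both thresholds. SLC2A1 (ENSDARG00000007412) and slc2a3b had ratios of 1.24 and 1.30. SLC16A1 (ENSDARG00000068572) and slc16a7 were lower in hypoxia, with log2 fold changes of -0.42 (SE 0.08) and -0.50 (SE 0.18). That of SLC16A7 (ENSDARG00000098258) was 0.33 (SE 0.06). Of the enzymes of glycolytic steps outside the 77, ENO1 (ENSDARG00000022456) rose from 508 to 901 CPM and GAPDHS from 757 to 1153 CPM, while PKLR, a pyruvate kinase, fell from 56.5 to 25.98 CPM. On a list of glycolysis and lactate genes, 18 of 49 tested were higher, 2 (PKLR and SLC2A2, a glucose transporter) lower and 29 neither, with a median log2 fold change of 0.41. Of the 18, 4 are among the 77, and PMM1, PPP1R3D and SLC16A8 were not on that list.

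5 genes of the mitochondrion or its regulation were among the 77, and close relatives of 3 of them had other values. The differences between relatives here and below were not tested. cox4i1l, named as a like gene of subunit 4 of cytochrome c oxidase, the enzyme that reduces oxygen in the respiratory chain, had 5.92, 4.66, 4.58 and 4.72 CPM in normoxia and 31.8, 30.1 and 30.2 CPM in hypoxia, a ratio of 6.18 (log2 fold change 2.72, SE 0.08). COX4I1, with 330.3 ± 5.98 CPM and 332 ± 10.9 CPM, and COX4I2, with 24.4 ± 0.620 CPM and 32.0 ± 3.49 CPM, did not pass the thresholds. perm1a, named for a regulator of muscle mitochondria, had 0.0569, 0.276, 0.0555 and 0.153 CPM against 1.41, 0.939 and 1.34 CPM. Its normoxia pools held few counts, and its ratio of 9.07 (log2 fold change 3.24, SE 0.39) rose to 13.9 without normoxia replicate 2. perm1b had 77.2 ± 4.57 CPM and 91.8 ± 6.18 CPM (log2 fold change 0.34, SE 0.06). The part of the muscle markers given beside mb was not tested for perm1a and ucp3 either.

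ucp3, an inner-membrane carrier of the uncoupling protein family, had 16.9, 21.6, 18.8 and 15.3 CPM in normoxia and 43.5, 38.7 and 38.6 CPM in hypoxia. In the same family UCP1 was lower in hypoxia, at 37.0 ± 5.07 CPM and 21.5 ± 5.36 CPM (log2 fold change -0.69, SE 0.14), and UCP2 had a log2 fold change of -0.19 (SE 0.05). SQOR, which oxidizes hydrogen sulfide in mitochondria, had 25.1, 21.9, 23.6 and 21.6 CPM against 54.3, 53.1 and 48.5 CPM. MFN1, which fuses outer membranes, had 3.31 to 5.06 CPM against 7.87, 10.3 and 10.3 CPM. On a list of uncoupling and fuel genes 1 of 15 tested was higher (ucp3) and 1 lower (UCP1), with a median log2 fold change of -0.15. The shares over all tested genes were 3.07% higher and 7.45% lower. Outside that list, the autophagy genes map1lc3cl, an LC3-like gene, and CALCOCO1, a receptor for autophagy of the endoplasmic reticulum in human cells, had ratios of 3.08 and 2.06.

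A pair of neighbouring genes of one family rose, and the 5 relatives found in the table had lower means in hypoxia. ponzr4 and ponzr3 are named for the onzin (PLAC8) family of cysteine-rich proteins and have no other gene between them in the RefSeq annotation. ponzr4 had 7.10, 10.4, 9.26 and 8.30 CPM in normoxia and 51.4, 49.8 and 40.2 CPM in hypoxia, a ratio of 5.39, and ponzr3 had 10.5, 12.9, 11.5 and 12.0 CPM against 51.6, 55.9 and 42.3 CPM, a ratio of 4.26. Both were lowest in normoxia replicate 1 and highest in normoxia replicate 2, and both were lowest among the hypoxia pools in replicate 3. ponzr1, ponzr2, ponzr5 and ponzr6 had log2 fold changes of -0.53 (SE 0.08), -0.65 (SE 0.13), -0.41 (SE 0.09) and -0.29 (SE 0.11), of which that of ponzr2 passed the thresholds. ponzr10, at 0.261 CPM in normoxia and 0.102 CPM in hypoxia, passed them too, with a log2 fold change of -1.25 (SE 0.38). In the RefSeq annotation both genes overlap ugt5g1, a glucuronosyltransferase gene, and their counts are uncertain to that extent.

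**Figure D3:**
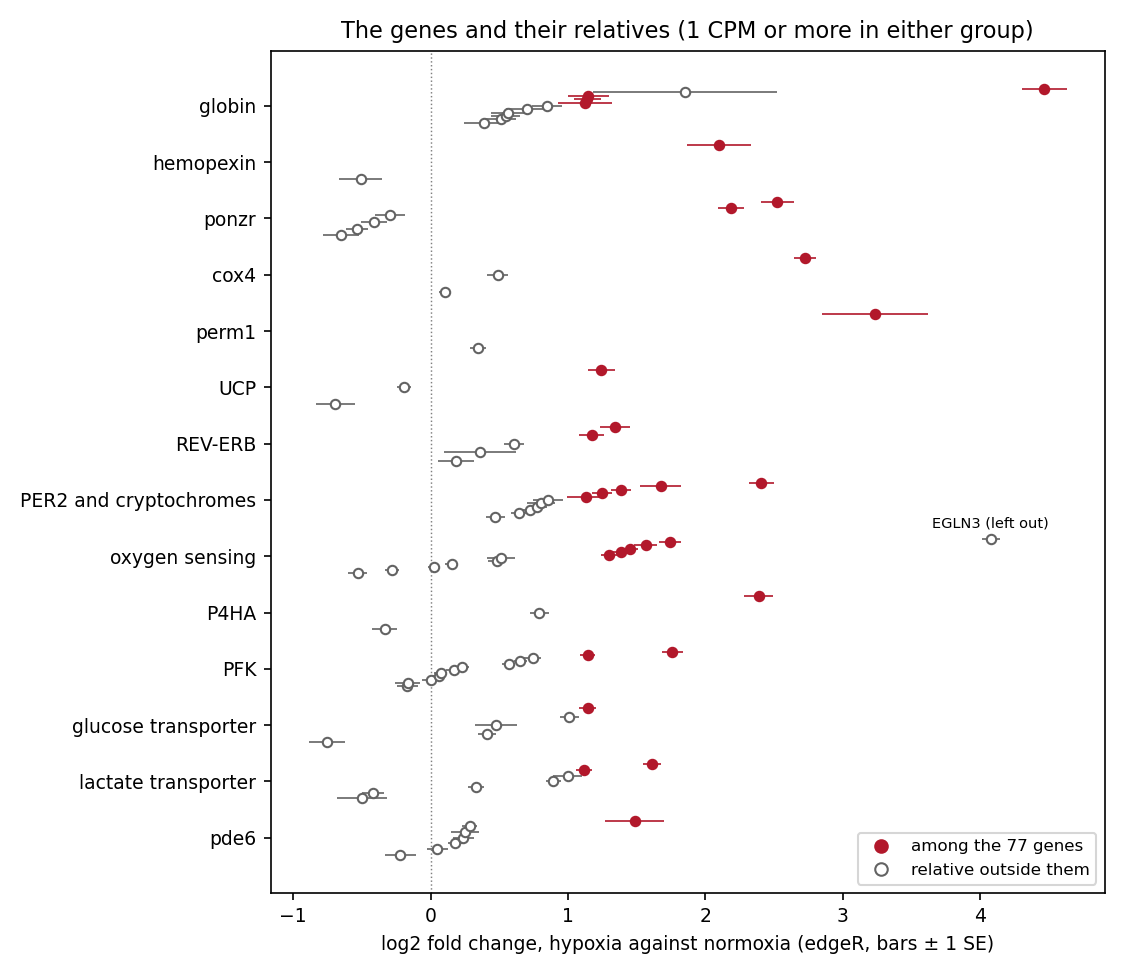
Log2 fold change in hypoxia against normoxia (horizontal axis, edgeR with TMM scaling, bars for 1 SE on either side) of the genes in 14 families, with filled points for members of the 77 and open points for relatives outside them. Relatives of ponzr3, ponzr4, hpxa, cox4i1l, perm1a and ucp3 lie at 0.49 or below, while globins, cryptochromes and lactate transporters form a gradient that crosses the selection limit. The open point at 4.08 is EGLN3, which was left out by definition.

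As the roles were divided here, clock genes formed the largest named group, 8 of the 77, with 7 in each of the next largest. PER2, a repressor of the circadian clock that is induced by light in zebrafish, had 9.01, 10, 9.79 and 10.03 CPM in normoxia and 41.4, 48.5 and 54.6 CPM in hypoxia, a ratio of 4.96 (log2 fold change 2.41, SE 0.09). CRY1 (ENSDARG00000045768), a cryptochrome, had 23.6, 25.2, 32.3 and 40.6 CPM against 85.9, 91.4 and 95.4 CPM. CRY2 had 21.9, 21.5, 24.998 and 27.0 CPM against 52.1, 52.5 and 54.3 CPM. The normoxia pools of CRY1 covered a wide range, 23.6 to 40.6 CPM, whereas those of PER2 lay together. cry3b and cry5 of the cryptochrome and photolyase family had ratios of 2.44 and 2.05. nr1d4a and nr1d4b, nuclear receptors of the REV-ERB family, had 3.38 and 7.27 CPM in normoxia and 8.02 and 15.3 CPM in hypoxia.

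On a list of 35 tested clock genes, 19 were higher, 0 lower and 16 neither, with a median log2 fold change of 0.65. Among the 16, both CLOCK and both BMAL1 genes, which encode the activators of the clock, had log2 fold changes of -0.04 to 0.01, and HLF, an output factor, had -0.26. Among the 19 called higher, PER1 had log2 fold changes of 0.80 (SE 0.10) in ENSDARG00000012499 and 0.86 (SE 0.11) in ENSDARG00000056885. There, dbpb, a transcription factor of clock output, had 0.88 (SE 0.10). NR1D1 had 73.4 ± 31.6 CPM in normoxia and 88.3 ± 9.08 CPM in hypoxia and did not pass the test.

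3 genes are known from photoreceptors or retina. pde6ha, an inhibitory subunit of the cone phosphodiesterase, had 15.9, 21.4, 30.8 and 36.2 CPM in normoxia and 63.0, 67.04 and 74.8 CPM in hypoxia. ankrd33ab, a relative of a photoreceptor cofactor, had 0.498, 0.645, 1.66 and 1.37 CPM against 2.67, 2.68 and 2.92 CPM. CLUL1, a clusterin-like gene expressed in the retina of mammals, had 2.22, 3.03, 2.704 and 2.57 CPM against 4.09, 5.16 and 7.32 CPM, the widest spread over the hypoxia pools of any of the 77 genes (CV 29.9%). The normoxia pools of pde6ha and ankrd33ab differed by more than a factor of 2 between the lowest and the highest. The summed CPM of 12 opsin genes was 7454 to 8108 in normoxia and 6949 to 8255 in hypoxia, so that the groups overlapped, and the catalytic subunit PDE6C had 408 ± 36.2 CPM and 450 ± 35.6 CPM (log2 fold change 0.24, SE 0.08). pde6ha overlaps erp27 in the RefSeq annotation.

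Secreted factors, signalling and lipid genes made up 7 of the 77, and all of them lay within a narrow band of ratios, 2.01 to 2.46. PTGS2 (ENSDARG00000010276), the inducible cyclooxygenase of prostaglandin synthesis, had 4.30, 4.5, 3.52 and 3.60 CPM in normoxia and 9.49, 10.1 and 9.84 CPM in hypoxia. ABCG1, a cholesterol exporter, had 6.10, 5.86, 6.93 and 7.16 CPM against 14.8, 15.9 and 16.5 CPM. IGFBP1, which binds insulin-like growth factors (IGF) and is made in liver, had 12.7, 12.8, 16.5 and 14.7 CPM against 36.2, 30.9 and 27.7 CPM. The liver markers fabp10a and apoa2 fell, with a summed CPM of 827 to 1313 in normoxia and 253 to 578 in hypoxia, and their part in the values of IGFBP1 and of hpxa was not tested. Its relative igfbp1b was at 1.61 and 2.96 CPM, with a ratio of 1.84. On a list of IGF genes, 3 of 22 tested were higher (IGFBP1, igfbp1b and an IRS2), 2 were lower and 17 neither, with a median log2 fold change of 0.10. Among all tested genes 3.07% were higher and 7.45% lower. CYP24A1, which inactivates vitamin D, the activin-type receptor ACVR1C, the kinase gene camkk1b and rasal1b, named for a brake on Ras, had ratios of 2.01, 2.04, 2.24 and 2.08.

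The remaining 23 genes have no role or a mixed one in the tables used. rsrp1, named for an arginine- and serine-rich protein, had 105, 94.2, 69.5 and 87.6 CPM in normoxia and 230.2, 213 and 223 CPM in hypoxia. ZNF395, a zinc finger gene, had 45.3, 42.5, 43.7 and 43.7 CPM against 99.2, 99.2 and 99.4 CPM. gvin1l2, named after very large interferon-inducible GTPases, had 47.1, 52.9, 62.7 and 65.5 CPM against 136, 117 and 106 CPM. ZNF395 had the lowest CV of all 77 genes in hypoxia, 0.138%, below the 1.21% that counting alone gives. Its SE of 0.04 on a log2 fold change of 1.28 was the smallest. lonrf1 rose from 8.74, 9.16, 10.6 and 13.9 CPM to 35.5, 37.9 and 42.3 CPM. PNP, a purine nucleoside phosphorylase, GRXCR1, known from hair-cell bundles, and the transporter abcc6b.2 had ratios of 2.41, 2.07 and 3.28. Several clone-named genes had large ratios. si:dkey-104n9.1 had 0.114, 0.132, 0.250 and 0.230 CPM against 1.04, 1.74 and 1.67 CPM, a ratio of 8.20, and RefSeq lists it as an RNA of no further class. si:dkey-62k3.4, si:dkey-23o4.6 and si:dkey-18a10.3 had ratios of 4.18, 4.13 and 3.83. The ratios of the others in this group, 3 IDs without a symbol among them, lay between 2.04 and 2.95.

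None of the 77 genes was switched on from nothing at this depth. 0 of the 77 had a mean normoxia level under 0.1 CPM, and 2, perm1a and si:dkey-104n9.1, were under 0.2 CPM. 9 were under 0.5 CPM and 15 under 1 CPM. The lowest count of any of the genes in a normoxia library was 4, in perm1a, whose normoxia counts were 4, 21, 4 and 12. For si:dkey-104n9.1 they were 8, 10, 18 and 18. Since no library held 3 counts or fewer, every ratio compares levels above that floor.

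The hypoxia pools differed from each other somewhat more in these genes than in others. The CV over the 3 hypoxia pools had a median of 7.66% in the 77 genes and 6.37% in the other genes at 1 CPM or more in hypoxia. At 10 CPM or more the medians were 6.31% in 40 of the 77 and 5.08% in 11432 others. In 46 of the 77 the CV was under 10% and in 8 over 20%, and in 12 it was no larger than counting alone gives. ZNF395, ANKRD37 and HIF1AN had the lowest CVs, all among those 12, so that their closeness is not distinguished from counting noise. CLUL1, hpxa and si:dkey-104n9.1 were the least even. In normoxia the median CV was 12.7% in the 77 genes and 5.81% in the others. No comparison at like levels was made in normoxia, where the 77 genes had a median level of 4.20 CPM.

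The selection required all 3 hypoxia pools to lie above normoxia, so that a gene raised in a single pool could not enter the set. In 26 genes the lowest hypoxia pool was under 2 times the normoxia mean. Roles differed in which hypoxia pool was highest. Hypoxia replicate 3 was the highest in 34 genes, replicate 1 in 29 and replicate 2 in 14, and for other genes at 1 CPM or more in hypoxia these shares were 35.7%, 44.4% and 19.9%, against 44.2%, 37.7% and 18.2% here. Of the 7 globin and heme genes, 6 were lowest in replicate 3, all but mb, where 38.7% of the other genes were lowest in that pool. Of the 7 sugar and lactate genes 6 were highest in replicate 3, and so were 6 of the 8 clock genes and all 3 eye genes. The 5 oxygen-sensing genes were spread over the pools, with median levels of 1.01, 1.01 and 1.01 relative to their hypoxia means in replicates 1 to 3. These counts are over few genes that share libraries, and no test was made of them.

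**Figure D4:**
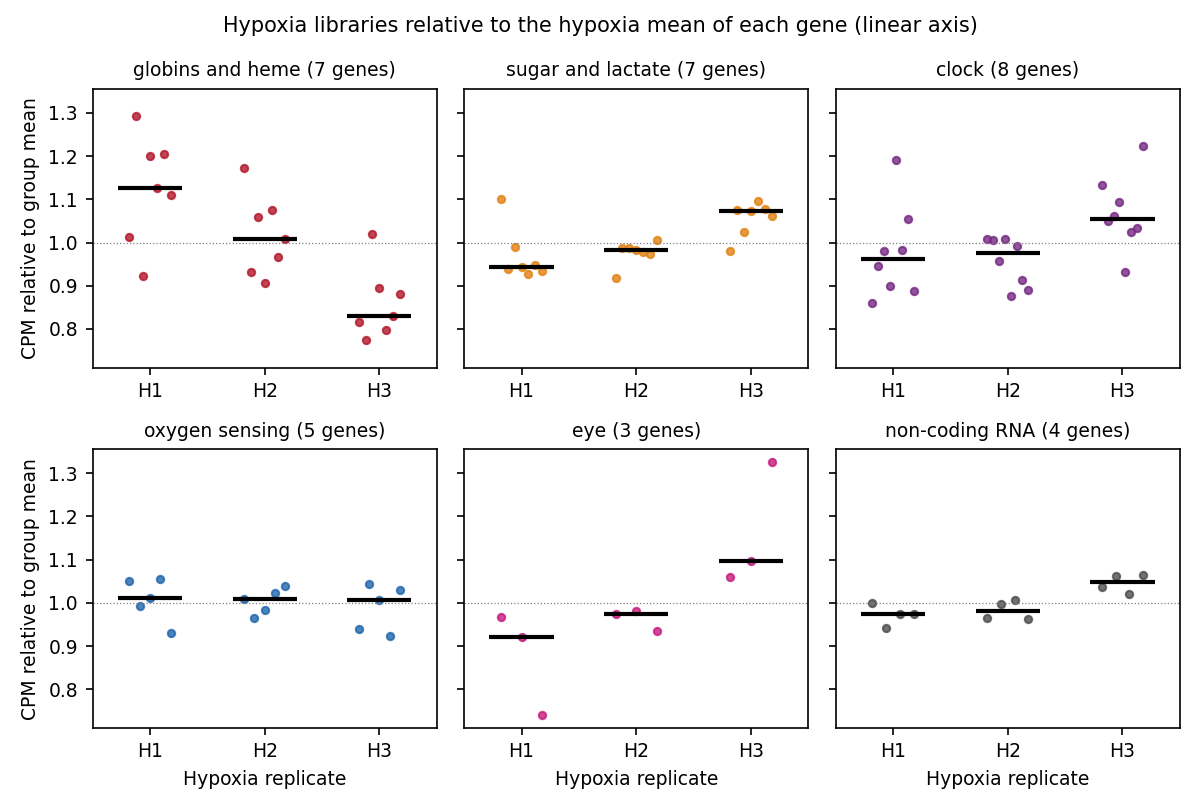
CPM of each hypoxia library (horizontal axis, replicates 1 to 3) divided by the hypoxia mean of the gene (vertical axis, linear scale, no unit) for 6 roles, with a point for each gene and a bar for the median. The globin and heme medians are 1.13, 1.01 and 0.8292, those of sugar and lactate 0.944, 0.983 and 1.07, and the oxygen-sensing points stay close to 1.

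Among the control pools, normoxia replicate 1 was the lowest in 34 genes and replicate 4 the highest in 29. In 19 genes (24.7%) both held, against 11.1% of the other genes. The eye genes were all lowest in normoxia replicate 1, and 6 of the 8 clock genes were highest in replicate 4. Of the oxygen-sensing genes, 4 of 5 were highest in normoxia replicate 1, which was the highest in 36.2% of the other genes. Without the 11 clock and eye genes, a division made after the values were seen, 66 genes remain.

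**Figure D5:**
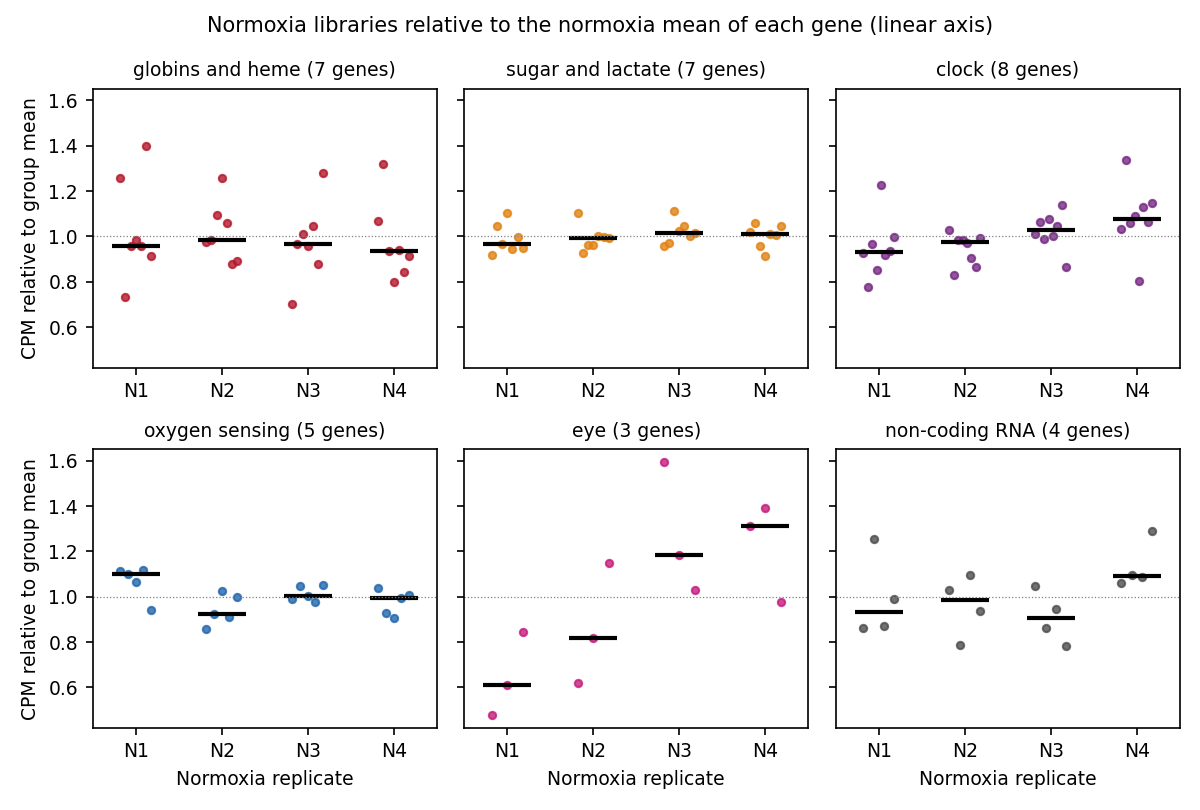
CPM of each normoxia library (horizontal axis, replicates 1 to 4) divided by the normoxia mean of the gene (vertical axis, linear scale, no unit) for the same 6 roles, with a point for each gene and a bar for the median. The eye medians are 0.609, 0.819, 1.18 and 1.31 and the clock medians 0.931, 0.976, 1.03 and 1.08, while the sugar and lactate medians stay between 0.968 and 1.02.

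The identity of the genes is firm for most and open for some. The gene table paired 23250 of the 25049 IDs with a symbol (92.8%). Of the 77 genes, 29 have a zebrafish symbol of 1 ID and 19 a human-style symbol that 1 zebrafish ID holds. A further 12 have a human-style symbol shared by several IDs, such as EGLN1, CRY1, HBE1, PFKP and SLC16A3, so that which duplicate is meant rests on the ID. 14 have a clone name and 3 no symbol. In the RefSeq gene table of another assembly, GRCz12tu, 55 of the 77 were matched by symbol, and 21 of these overlap another gene there, among them vhl with pfkfb4b, cry5 with foxred1, and nr1d4a and nr1d4b with the retinoic acid receptor genes rarga and rargb. The strand setting of the counting is not given in the sources used here, and the counts of those 21 genes are uncertain to that extent.

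The limits of the selection fell among genes of like values. Just inside the ratio limit were CYP24A1 at 2.01, kel at 2.02 and SLC16A3 at 2.03, and just outside METTL23 at 1.9996, EEF2K at 1.99 and si:ch211-276i12.4 at 1.99. Just inside the limit of level were si:rp71-46j2.8 at 1.02 CPM, MIR21 at 1.09 CPM and perm1a at 1.23 CPM in hypoxia, and just outside mir199-2a at 0.921, irgf1 at 0.914 and ENSDARG00000115359 at 0.878. By overlap, hbae4, ENSDARG00000076766 and CLUL1 were the closest inside, with lowest hypoxia libraries of 1.95, 0.958 and 4.09 CPM above highest normoxia libraries of 1.61, 0.729 and 3.03 CPM. The 2 genes kept out by overlap alone were hbbe3 and si:ch1073-425j19.2, and 67 genes met the ratio and the separation at a level under 1 CPM.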

How the data were processed

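For 7 poly(A) libraries the authors deposited whole-number gene counts without normalization. Per the study's methods and processing notes, these were made with Trimmomatic 0.39 (trimming), STAR 2.7.10 (alignment, GRCz11) and featureCounts 2.0.7 (counting, annotation of Ensembl release 113). Neither the strand setting nor the treatment of reads that match several genes is given in the sources used here. Groups and replicate numbers came from the sample labels. CPM was the count over the column total times 1000000. In R 4.3.3, edgeR 4.0.16 (filterByExpr, TMM, glmQLFit, glmQLFTest, Benjamini-Hochberg adjustment) compared 3 hypoxia with 4 normoxia libraries over 23716 genes, and the SE is the log2 fold change over the root of F. Tested on simulated counts of 23716 genes for this comparison, it recovered 98 of 100 genes changed by a log2 of 1 and 100 of 100 changed by 2, with 2 unchanged genes called. The changed genes were rises and falls, drawn only from genes above a floor on mean count. Recovery among genes with few counts was therefore not tested. Floors cover counting error only, while the SE also includes the spread between pools in the edgeR fit.

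The members, the gene lists and the roles were chosen with earlier results of these data known. Genes named were the 15 highest in hypoxia CPM, the 15 highest ratios, those near zero in normoxia, the 3 lowest and 3 highest CV, members on the lists and the genes at the limits. Members named outside this rule, to describe a role, and the relatives were chosen after their values were seen. The 20 hormone genes left out were identified from the names in a figure of the study. No gene sequences were used. Alternatives were other scalings, limits and tests (DESeq2 1.42.0 among them), leaving out each replicate and the replicate number as a block. The values of 1 clock gene and its relatives are not reported here.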

Additional observations from a re-analysis of the deposited data

Results flagged for a closer look

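In 7 of the 77 genes, 1 normoxia library stood apart from the other 3 by more than Dixon's limit for 4 samples, a limit that chance passes in about 1 group in 20. The genes share these 4 libraries and were selected on the same values, so the number of such genes is a description. cox4i1l was highest in normoxia replicate 1 at 5.92 CPM, with the others at 4.58 to 4.72 CPM. si:dkey-85k7.7 was lowest in normoxia replicate 1 at 27.8 CPM, with the others at 33.2 to 34.2 CPM. PNP was lowest in replicate 4 at 6.29 CPM, and PPP1R3D was highest in replicate 3 at 3.23 CPM. si:dkey-283b1.7 was lowest in replicate 1 at 0.925 CPM. The globin gene hbae4 was highest in replicate 1 at 1.61 CPM, with the others at 0.971 to 1.01 CPM, and kel was highest in replicate 3 at 1.36 CPM. Each of these libraries lay below every hypoxia library of its gene, as the selection required. The groups of 3 hypoxia libraries were not examined in this way.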

How the results depend on the processing

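The number of genes depended mostly on the limits of the selection. It was 77 as selected, 144 with no floor on level, 356 at a ratio of 1.5 and 19 at a ratio of 3. It was 103 with TMM scaling, all 77 included. Leaving out each replicate in turn gave 74 to 84 genes, 67 to 74 of them from the 77. The median ratio of 2.41 was 2.58 with either scaling and 2.35 to 2.47 with each replicate left out. All 77 were called higher by edgeR in every alternative, by DESeq2 and with the replicate block, as they were selected on that contrast. None was near zero in normoxia at 0.1 CPM and 2 were at 0.2 CPM. Of 693 ratios in 9 settings, 0 were under 1, and 20 genes had a ratio under 2 in at least 1 setting, the lowest 1.76 in CLUL1. Without normoxia replicate 2 the ratio of perm1a was 13.9, the only one that moved by over 1.5 times, since that pool held 21 of its normoxia counts. The deviations of same-numbered pools correlated at 0.31, 0.03 and 0.10, which does not settle whether the pools were paired. The main comparison did not take the numbers as pairs, and the replicate block is an alternative to it. With the replicate block, 54 of the 77 genes had all 3 same-numbered ratios at 2 or more. The geometric mean of the same-numbered ratios had a median of 2.45 over the 77 genes. The lowest levels rest on few counts, such as the 4 to 21 counts of perm1a in normoxia, and a CV over 3 pools is itself imprecise.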
